A study of Rattus norvegicus with 4 samples.

Results

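The genes described here are 10 transcription factors that set the identity of sensory neurons: Isl1, Pou4f1, Pou4f2, Pou4f3, Runx1, Runx3, Etv1, Tlx3, Shox2 and Maf. They were taken from the deposited counts by gene symbol and protein-coding biotype, and all 10 were found among the 22293 protein-coding genes listed. Each passed the filter on low counts, so the 10 factors stand among 14719 genes tested. Messenger RNA of whole lumbar dorsal root ganglia (DRGs) was sequenced from 4 neonatal wild-type Wistar rats. One group of 2 libraries came from rats given vehicle (PBS), and the other 2 libraries from rats given cisplatin, a platinum-based chemotherapeutic, at 0.3 mg/kg. According to the methods, cisplatin was injected on postnatal days (P) 14 and 16, 2 to 5 lumbar DRGs were pooled for each library, and tissue was collected at P23, whereas the labels give 16 days after treatment. Male and female rats were used in the study, but the sex behind each library is not stated. Nothing in the labels says that same-numbered rats of the groups are related. The question asked of each factor was whether its level differed between vehicle-treated and cisplatin-treated rats.

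DRGs hold the cell bodies of the neurons that carry touch, pain, temperature, itch and limb position. Isl1 and Pou4f1 act early in nearly all newborn sensory neurons, where they end the neurogenic programme and switch on sensory genes. The Runx factors and others then divide the neurons into classes. Runx1 is needed for nonpeptidergic nociceptors, Runx3 and Etv1 for proprioceptors, and Shox2 and Maf for touch-sensitive mechanoreceptors. Several of the factors remain active after birth, when they maintain the receptors and ion channels of their class.

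Total counts were 21384801 to 25618417 per library. The libraries differed beyond sampling noise, with a chi-square divided by its degrees of freedom of 35.7 for the closest pair. Neuronal content was read from 12 pan-neuronal markers such as Prph, Nefl and Tubb3, in CPM (the count set against the TMM-scaled library total). They summed to 27308 and 21490 CPM in vehicle replicates 1 and 2, and to 36068 and 25480 CPM in cisplatin replicates 1 and 2. Pan-neuronal markers as a set cannot tell DRG from spinal cord. Markers of Schwann cells, the myelinating glia, summed to 61461, 156198, 48079 and 137032 CPM in the same order. Vehicle replicate 1 stood apart from the other libraries in transcripts of the central nervous system. Olig1, an oligodendrocyte lineage factor, had 443 counts there and 9, 8 and 6 counts in vehicle replicate 2 and cisplatin replicates 1 and 2. Slc6a5, the glycine transporter of spinal inhibitory neurons, had 286 counts there and 2, 9 and 4 counts in the others, and was chosen after its values were seen. The spinal cord also uses several of the 10 factors, so the log2 fold change of each factor is given with and without that library.

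The sequences just upstream of 4 of the factors are shown because these genes carry the contrasts described below. Tlx3 and Isl1 kept the most constant ratio to the neuronal markers. Pou4f1, like Shox2, was highest in the library that stood apart, and Maf had the opposite pattern over the libraries. Each is the 250 bases before the annotated start, 5′ to 3′ on the gene's strand, from RefSeq on build GRCr8, which is not the Rnor_6.0 build of the counts. Capitals mark CCAAT boxes on either strand (CCAAT or ATTGG) or the E-box CAGCTG. The windows lie at chr10:18296552-18296801 for Tlx3, chr2:49823443-49823692 for Isl1, chr15:87674644-87674893 for Pou4f1 and chr19:60621357-60621606 for Maf, all on the minus strand.
Tlx3: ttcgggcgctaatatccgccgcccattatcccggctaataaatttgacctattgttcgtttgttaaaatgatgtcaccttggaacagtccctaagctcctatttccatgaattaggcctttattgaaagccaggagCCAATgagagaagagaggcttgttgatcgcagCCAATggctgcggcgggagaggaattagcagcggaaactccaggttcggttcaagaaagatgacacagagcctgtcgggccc
Isl1: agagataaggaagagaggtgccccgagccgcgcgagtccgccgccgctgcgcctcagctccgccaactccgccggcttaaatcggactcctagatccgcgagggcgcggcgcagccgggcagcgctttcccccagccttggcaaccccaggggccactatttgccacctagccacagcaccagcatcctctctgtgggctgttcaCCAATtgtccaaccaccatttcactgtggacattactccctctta
Pou4f1: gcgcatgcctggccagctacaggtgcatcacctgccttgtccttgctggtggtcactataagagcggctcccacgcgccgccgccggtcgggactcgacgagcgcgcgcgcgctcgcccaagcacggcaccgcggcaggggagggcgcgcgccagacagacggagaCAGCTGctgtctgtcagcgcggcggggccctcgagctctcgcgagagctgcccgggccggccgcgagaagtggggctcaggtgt
Maf: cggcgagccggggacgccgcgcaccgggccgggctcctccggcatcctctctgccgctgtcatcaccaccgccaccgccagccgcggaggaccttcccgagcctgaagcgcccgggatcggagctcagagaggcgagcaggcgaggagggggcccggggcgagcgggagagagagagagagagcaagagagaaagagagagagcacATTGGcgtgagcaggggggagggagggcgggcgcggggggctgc

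Windows were found for 9 of the 10 factors, with 2 for Runx3, and Shox2 was not matched. A CCAAT box was present in 5 of these 10 windows, those of Isl1, Maf and Tlx3 and both of Runx3, against 34.0% of all 33469 windows of that length. The Tlx3 window held 2 CCAAT boxes, 114 and 82 bases before the start. The E-box CAGCTG was present in 3 windows, those of Etv1, Pou4f1 and Pou4f2, against 12.0% of all windows. RUNX letters (TGTGGT or TGCGGT, both strands) were present in the windows of Pou4f3 and, at 1 of its starts, Runx3, against 19.0% of all. The homeodomain core TAATTA, the ETS letters CGGAAGT, the MAF half-site TGCTGAC and the TATA box TATAAA were in none of the 10 windows and in 4.86%, 5.22%, 3.53% and 12.9% of all. The GC content was 49.2% for Tlx3, 62.8% for Isl1, 72.4% for Pou4f1 and 73.2% for Maf, beside a median of 51.2% over all windows.

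All 10 factors were expressed in every library, over a 32.1-fold range of mean level between Tlx3 and Runx3. Levels between genes are compared in FPKM, which is the count per gene length and library size. Tlx3, a homeobox factor that selects the excitatory fate, had the highest mean at 85.1 FPKM (range 60.2 to 117 over 4 libraries) and lay above 93.2% of the genes tested. Maf, the large MAF leucine zipper factor, followed at 37.2 FPKM (17.5 to 58.0). Pou4f1 (22.7 FPKM, 16.2 to 30.8), Etv1 (22.7 FPKM, 19.8 to 26.9) and Isl1 (22.4 FPKM, 16.4 to 29.4) came next and could not be ordered. Pou4f3 had 13.2 FPKM (10.6 to 17.1) and Shox2 10.7 FPKM (9.29 to 12.6). The lowest levels were those of Runx1 (4.92 FPKM, 3.85 to 6.12), Pou4f2 (4.77 FPKM, 2.90 to 7.19) and Runx3 (2.65 FPKM, 1.39 to 4.04), the last above 28.4% of the genes tested. Of the 9 pairs of neighbours in this order, 7 overlapped in their ranges. Tlx3 over Maf and Shox2 over Runx1 did not overlap.

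**Figure D1:**
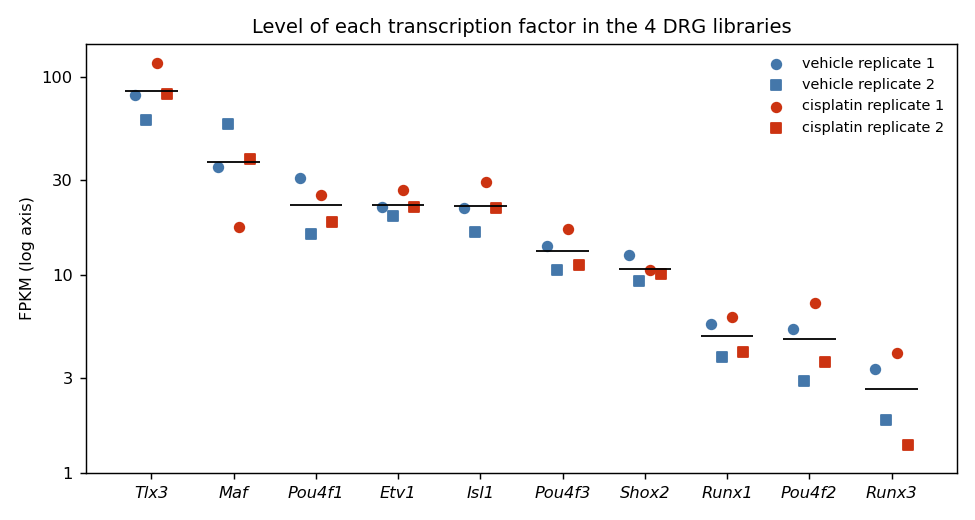
FPKM (log axis) of the 10 transcription factors in each of the 4 libraries, ordered by mean level, with the mean over the libraries as a bar. Tlx3 lies above Maf and Shox2 above Runx1 without overlap, and the other neighbours overlap.

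Within families the order of the paralogues was the same in all 4 libraries. Among the POU4 (Brn3) factors, Pou4f1 exceeded Pou4f2 by 5.76-fold and 5.58-fold in vehicle replicates 1 and 2 and by 3.52-fold and 5.06-fold in cisplatin replicates 1 and 2, in FPKM. Both vehicle-treated libraries thus had the higher ratio. Pou4f1 exceeded Pou4f3 by 2.21-fold and 1.53-fold in the vehicle-treated and by 1.48-fold and 1.64-fold in the cisplatin-treated libraries, and these groups overlapped. Runx1 exceeded Runx3 by 1.69-fold, 2.09-fold, 1.51-fold and 2.94-fold in vehicle replicates 1 and 2 and cisplatin replicates 1 and 2, also with overlap. With 2 libraries against 2, an exact two-sided permutation test cannot give a p below 0.333, so these ratios are descriptions.

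None of the 10 factors was called different between cisplatin-treated and vehicle-treated rats. The call asked for at least a 1.5-fold change and, in edgeR's quasi-likelihood test, a p below 0.05 after Benjamini-Hochberg adjustment. Over all genes tested this rule called 0% higher and 0.00679% lower after cisplatin. DESeq2 (0.35% of its genes higher and 0.594% lower) and limma on FPKM also called 0 of the 10. With the p left unadjusted and the same 1.5-fold change, edgeR gave 0 of 10, where 2.8% of all genes were higher and 5.32% lower. Of the 10 log2 fold changes 7 were above 0, with a median of 0.15, beside 7232 of 14719 above 0 and a median of -0.01 over all genes. The cisplatin-treated libraries both lay above the vehicle-treated libraries in 2 of the 10 factors, where 20.6% of all genes did so, and both below in 0 of 10, where 21.2% did so. Without vehicle replicate 1, 9 of the 10 log2 fold changes were above 0, all but that of Maf. The median over all genes was then 0.01, and the share of all genes above 0 was not computed. Vehicle replicate 2 then stood alone for its group, and its pan-neuronal markers summed to 21490 CPM, the lowest sum of any library.

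**Figure D2:**
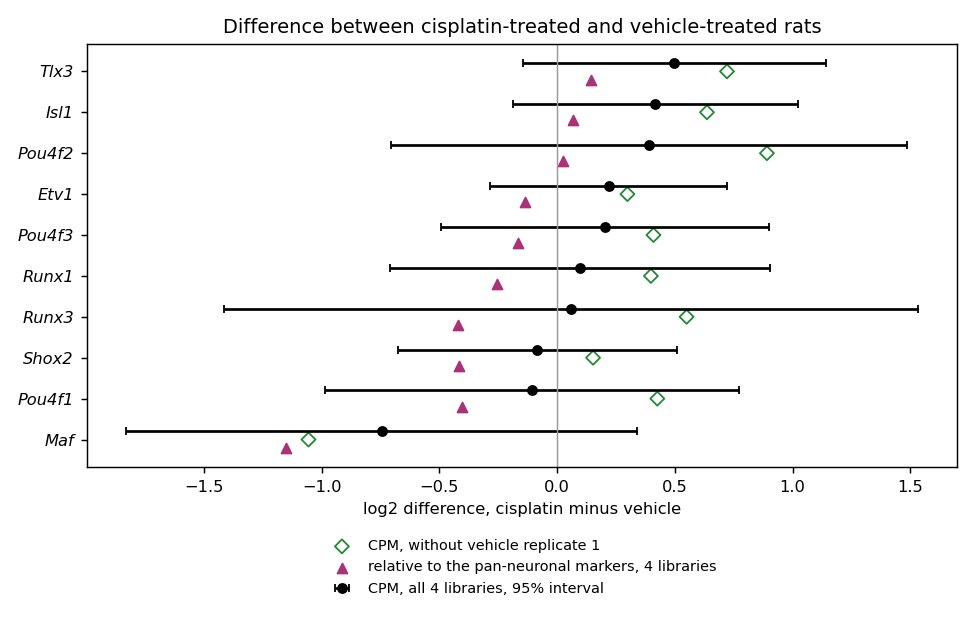
Log2 difference between cisplatin-treated and vehicle-treated rats for each factor, in CPM with the 95% interval from edgeR, in CPM without vehicle replicate 1, and relative to the pan-neuronal markers. Every interval includes 0, Tlx3, Isl1 and Pou4f2 are above 0 in each of the 3 measures, and Maf is below 0 in each.

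Isl1, the LIM homeobox factor of all sensory neurons, and its frequent partners in the POU4 family were examined first. Isl1 (ENSRNOG00000012556, chromosome 2, 48487736 to 48501436) had 54.8 and 41.6 CPM in vehicle replicates 1 and 2, and 73.8 and 54.8 CPM in cisplatin replicates 1 and 2. The groups touched without overlapping, the lower cisplatin-treated library exceeding the higher vehicle-treated library by less than the rounding. Its log2 fold change was 0.42 (SE 0.24, 95% interval -0.19 to 1.02, adjusted p = 0.594 by edgeR with Benjamini-Hochberg adjustment), and 0.64 without vehicle replicate 1. Pou4f1 (ENSRNOG00000060662, chromosome 15, 88620470 to 88622413), or Brn3a, had 39.4 and 20.9 CPM in the vehicle-treated and 32.4 and 23.5 CPM in the cisplatin-treated libraries. Vehicle replicate 1 was the highest and vehicle replicate 2 the lowest, so that the cisplatin-treated libraries lay between them. The log2 fold change of Pou4f1 was -0.11 (SE 0.35, 95% interval -0.99 to 0.77, adjusted p = 0.930 by edgeR), and without vehicle replicate 1 it was 0.43. Without cisplatin replicate 2 it was 0.10, so the sign turned with either library left out. The part of the central nervous system transcripts of vehicle replicate 1 in this value was not tested.

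Pou4f2 (Brn3b; ENSRNOG00000012167, chromosome 19, 33160180 to 33163821) had 17.5 and 9.60 CPM in vehicle-treated and 23.6 and 11.9 CPM in cisplatin-treated rats. Replicate 1 was the higher library in both groups, and the groups overlapped. Pou4f2 had a log2 fold change of 0.39 (SE 0.44, 95% interval -0.71 to 1.48, adjusted p = 0.784 by edgeR), and without vehicle replicate 1 it was 0.89, but without cisplatin replicate 1 it was -0.18. Pou4f3 (Brn3c; ENSRNOG00000018842, chromosome 18, 36713869 to 36716461), best known from the hair cells of the inner ear, had 32.3 and 24.8 CPM in vehicle-treated and 39.8 and 26.0 CPM in cisplatin-treated rats. Here too replicate 1 was the higher and the groups overlapped. The log2 fold change was 0.20 (SE 0.28, 95% interval -0.49 to 0.90, adjusted p = 0.825 by edgeR), with 0.41 when vehicle replicate 1 was left out and -0.13 when cisplatin replicate 1 was.

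Tlx3, which with Runx1 governs nociceptor and itch receptor genes, had the highest log2 fold change of the 10. Tlx3 (ENSRNOG00000004976, chromosome 10, 18129408 to 18131562) had 72.1 and 54.4 CPM in vehicle-treated and 105 and 73.5 CPM in cisplatin-treated rats. Both cisplatin-treated libraries were above both vehicle-treated libraries. The log2 fold change was 0.50, or 1.41-fold (SE 0.26, 95% interval of the log2 value -0.14 to 1.14, adjusted p = 0.564 by edgeR), and without vehicle replicate 1 it was 0.72. Runx1 (ENSRNOG00000001704, chromosome 11, 32769165 to 33003021) had 13.1 and 8.99 CPM in vehicle-treated and 14.2 and 9.44 CPM in cisplatin-treated rats. Its groups overlapped and the log2 fold change was 0.10 (SE 0.32, 95% interval -0.71 to 0.90, adjusted p = 0.931 by edgeR). The log2 value ranged from -0.22 without cisplatin replicate 1 to 0.40 without vehicle replicate 1. Runx1 and Runx3 are also expressed by leukocytes. The 9 macrophage or leukocyte markers summed to 51.5, 60.4, 49.8 and 56.4 CPM in vehicle replicates 1 and 2 and cisplatin replicates 1 and 2. Of the 9, 5 were higher in replicate 2 in both groups, where 38.2% of all genes tested were so. The part of leukocytes in the level of either factor was not tested. Of the T cell markers, Cd3d, Cd3e, Cd8a and Cd8b did not pass the filter on low counts, while Cd3g passed it with 42, 74, 35 and 77 counts in the same order.

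Of the proprioceptor factors, Etv1 varied less between libraries than Runx3. Etv1 (ENSRNOG00000006867, chromosome 6, 58467254 to 58558631), the ETS factor of proprioceptors that is also found in other afferents, had 155 and 141 CPM in vehicle-treated and 190 and 155 CPM in cisplatin-treated rats. Cisplatin replicate 1 was the highest library, and cisplatin replicate 2 lay just under vehicle replicate 1, so the groups overlapped. The log2 fold change was 0.22 (SE 0.20, 95% interval -0.28 to 0.72, adjusted p = 0.725 by edgeR), and 0.30 without vehicle replicate 1. Runx3 (ENSRNOG00000054217, chromosome 5, 153507093 to 153531137) had 105 and 46 counts in vehicle replicates 1 and 2, against 129 and 41 in cisplatin replicates 1 and 2. The difference between replicates was 1.79-fold in vehicle-treated and 2.91-fold in cisplatin-treated rats, in CPM, and exceeded the difference between the groups. The log2 fold change of Runx3 was 0.06 (SE 0.59, 95% interval -1.42 to 1.53, adjusted p = 0.979 by edgeR), the widest interval of the 10. It was -0.91 without cisplatin replicate 1 and 0.55 without vehicle replicate 1.

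Shox2, a homeobox factor of TrkB-positive mechanoreceptors, and Maf were the other members with a log2 fold change below 0. Shox2 (ENSRNOG00000012478, chromosome 2, 164118191 to 164126783) had 19.97 and 14.9 CPM in vehicle-treated and 16.9 and 16.0 CPM in cisplatin-treated rats. As for Pou4f1, both cisplatin-treated libraries lay between the vehicle-treated libraries. Its log2 fold change was -0.08 (SE 0.24, 95% interval -0.68 to 0.51, adjusted p = 0.919 by edgeR), and 0.15 without vehicle replicate 1. Maf (ENSRNOG00000012428, chromosome 19, 48194804 to 48196748) had 69.5 and 116 CPM in vehicle-treated and 34.8 and 76.1 CPM in cisplatin-treated rats. It was lowest in cisplatin replicate 1 and highest in vehicle replicate 2, with overlap between the groups. The log2 fold change was -0.74, or 0.597-fold (SE 0.43, 95% interval of the log2 value -1.83 to 0.34, adjusted p = 0.595 by edgeR), and -1.06 without vehicle replicate 1.

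Of the 10 factors, 9 shared a pattern that crossed the treatment groups. In both groups these 9 were higher in replicate 1 than in replicate 2, where 34.2% of all genes tested were so. The replicate numbers come from the titles and are not taken to pair rats between the groups, so the shared direction rests on that numbering. Maf was higher in replicate 2 in both groups, by 1.67-fold in vehicle-treated and 2.19-fold in cisplatin-treated rats, a direction that 38.2% of genes had. All 12 pan-neuronal markers were higher in replicate 1 in both groups, and 11 of them had a log2 fold change above 0, with none called by edgeR. All 6 Schwann cell markers were higher in replicate 2 in both. The fibroblast markers summed to 4794 and 6545 CPM in vehicle-treated and 2547 and 4985 CPM in cisplatin-treated rats. Like Maf, this sum was lowest in cisplatin replicate 1 and highest in vehicle replicate 2. The sums of Schwann cell, satellite glia, endothelium and macrophage or leukocyte markers were so too, so this order was not particular to fibroblasts. Those of the T cell and central nervous system markers were not so. Col1a1 made up most of the fibroblast sum. Dcn had another order, at 470 and 841 CPM after vehicle and 494 and 873 CPM after cisplatin. Maf is not confined to neurons, and the part of these cell types in its level was not tested. In whole DRGs, fewer cells of a type and less RNA per cell cannot be told apart.

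**Figure D3:**
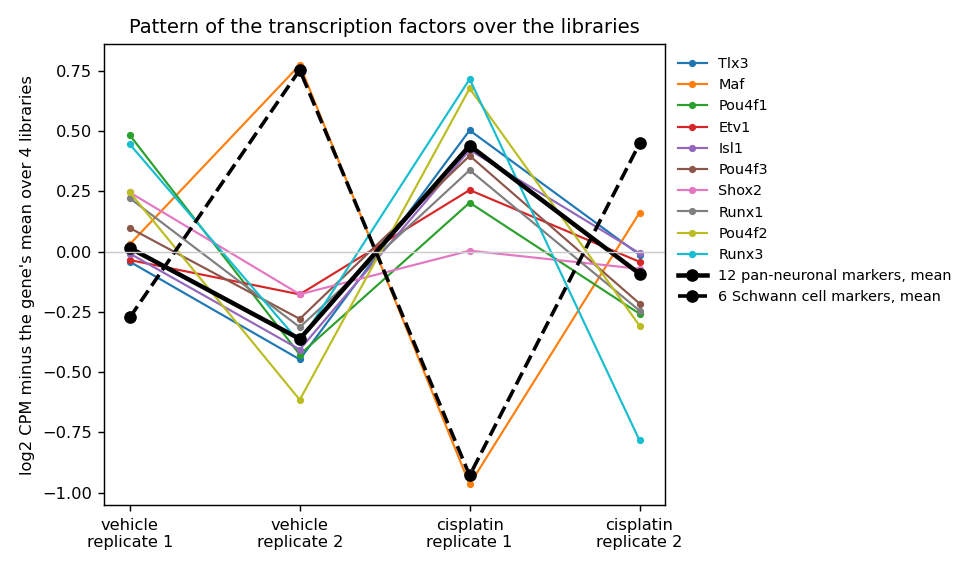
Log2 CPM of each factor minus its own mean over the 4 libraries, with the mean of 12 pan-neuronal markers (solid black) and of 6 Schwann cell markers (dashed black). In this plot 9 factors are higher in replicate 1 than in replicate 2 of each group, as the neuronal markers are, and Maf is higher in replicate 2, as the Schwann cell markers are.

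Genes whose log2 CPM, centred on the mean of the 4 libraries, was nearest to that of a factor were looked up for 3 of them. For Tlx3 the nearest were Htatip2 (root mean square difference 0.0105), Cntfr (0.0144) and Ppef1 (0.0224), Cntfr being the receptor subunit for ciliary neurotrophic factor. For Pou4f1 they were Spock1 (0.0253), Celsr3 (0.0332) and Tmem150b (0.0384). For Maf they were Lama5 (0.0299), a laminin chain of basement membranes, Crispld2 (0.0322) and Ajuba (0.0389). Within a difference of 0.1 there were 282 genes for Tlx3, 87 for Pou4f1 and 60 for Maf, so likeness over 4 libraries is a weak criterion.

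Since the pan-neuronal markers also varied between libraries, each factor was set against them. Their geometric mean was 739 and 568 CPM in vehicle-treated and 992 and 686 CPM in cisplatin-treated rats, a log2 difference of 0.35. Relative to this mean, 8 of the 10 factors spread over a narrower range across libraries than in CPM. For Isl1 the range narrowed from 0.83 to 0.13 and for Tlx3 from 0.95 to 0.16 on the log2 scale, whereas for Shox2 it widened from 0.42 to 0.67 and for Maf from 1.74 to 2.54. Isl1 and Tlx3 thus kept nearly the same ratio to neuronal markers in all 4 libraries.

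Relative to the neuronal markers, 7 of the 10 factors were lower and 3 higher in cisplatin-treated rats, with a median log2 difference of -0.21. The log2 difference of the markers themselves was 0.35, beside a median log2 fold change of -0.01 over all genes. A gene at that median would thus also be lower relative to the markers. The log2 ratio of Tlx3 to the markers was -3.36 and -3.38 in vehicle-treated and -3.24 and -3.22 in cisplatin-treated rats, a difference of 0.14 with no overlap. That of Isl1 was -3.755 and -3.773 in vehicle-treated and -3.748 and -3.644 in cisplatin-treated rats, a difference of 0.07. Its groups again did not overlap, but they nearly touched. These 2 of 10 compare with 3.84% of all genes whose ratio in both cisplatin-treated libraries exceeded both vehicle-treated libraries. Because the markers themselves were higher after cisplatin, this share is low for genes in general, and the share among neuronal genes was not computed. The ratio was below both vehicle-treated libraries in 4 of 10 factors, Pou4f1, Pou4f3, Runx1 and Shox2, where 32.6% of all genes were so. Shox2 had log2 ratios of -5.21 and -5.25 in vehicle-treated and -5.88 and -5.42 in cisplatin-treated rats, a difference of -0.42. This was -0.39 without vehicle replicate 1, -0.19 without cisplatin replicate 1 and -0.64 without cisplatin replicate 2. Pou4f1 had -4.23 and -4.76 in vehicle-treated and -4.93 and -4.86 in cisplatin-treated rats. Its difference was -0.40, and it was -0.14 without vehicle replicate 1 and -0.67 without vehicle replicate 2. For each of these 6 factors the exact two-sided permutation p was 0.333, the smallest that this design allows, so none could pass a threshold of 0.05.

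The differences of Isl1 and Tlx3 were small beside the choice of markers. With 1 interleaved set of 6 of the 12 markers they were 0.18 and 0.25, and with the other set -0.04 and 0.03. Pou4f1 and Shox2 were below 0 with either set, at -0.29 and -0.31 and at -0.51 and -0.52. Without vehicle replicate 1 the difference was 0.08 for Isl1 and 0.16 for Tlx3, and it stayed above 0 without any 1 library for both, down to 0.016 for Isl1 without cisplatin replicate 2. Maf differed by -1.15 with overlapping groups, and by -1.71 without vehicle replicate 1, -0.59 without vehicle replicate 2, -0.32 without cisplatin replicate 1 and -1.98 without cisplatin replicate 2. Pou4f2 differed by 0.02, and by 0.27 without vehicle replicate 1, 0.25 without cisplatin replicate 2, -0.22 without vehicle replicate 2 and -0.20 without cisplatin replicate 1. The sign for Pou4f2 thus rested on single libraries. Runx3 differed by -0.42, and by -0.19 without vehicle replicate 1, -0.65 without vehicle replicate 2, -0.93 without cisplatin replicate 1 and 0.08 without cisplatin replicate 2.

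**Figure D4:**
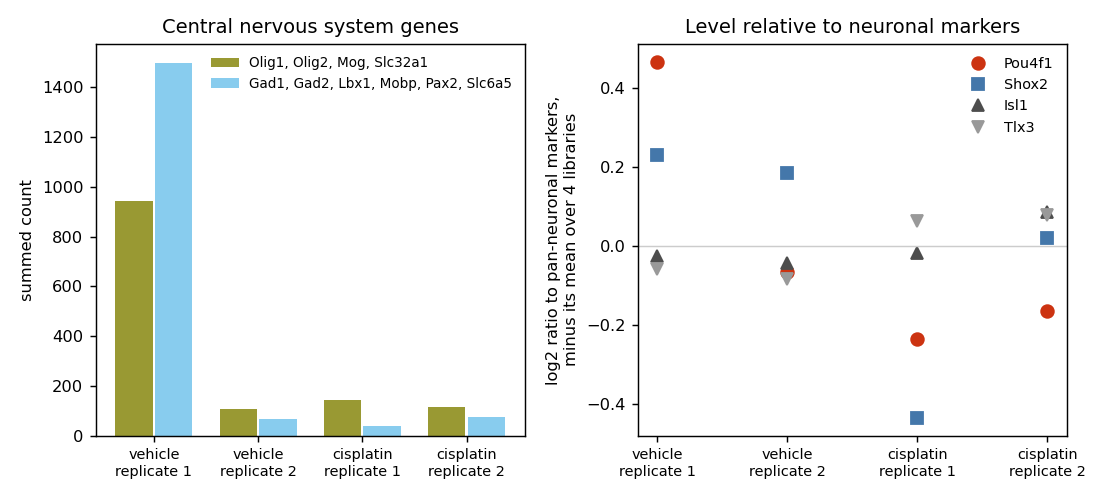
Left, summed counts per library of 4 listed central nervous system genes and of 6 more chosen after their values were seen. Right, log2 ratio to the pan-neuronal markers minus its mean over the libraries for Pou4f1, Shox2, Isl1 and Tlx3. Vehicle replicate 1 has 942 and 1499 summed counts, the highest of the 4 libraries in both sets. It also has the highest ratio of Pou4f1 and Shox2, and of Runx1 and Runx3 (not shown), while Isl1 and Tlx3 stay close to 0. For Shox2 the log2 ratios before centring are close in vehicle replicates 1 and 2, at -5.21 and -5.25. The share of all genes with their highest ratio in that library was not computed, and a link to the central nervous system counts was not tested.

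The factors that act beside these 10 were read from a list of 38 related genes, of which 36 were matched and 32 tested. None was called by edgeR, 19 had a log2 fold change above 0 and 13 below, and the median was 0.05. With the p left unadjusted and a 1.5-fold change, 2 of the 32 were higher and 2 lower, where 2.8% and 5.32% of all genes were. They included Ldb2 and Lmo4, which were higher, and Hipk2, which was lower. Ldb2, a cofactor that binds LIM homeodomain proteins such as Isl1, had 50.7 and 56.5 CPM in vehicle-treated and 110 and 79.2 CPM in cisplatin-treated rats, and its log2 fold change was 0.82 (adjusted p = 0.509 by edgeR; 0.75 without vehicle replicate 1). Lmo4, a LIM-only protein that binds the same cofactors, had 52.7 and 74.1 against 95.8 and 94.8 CPM, and its log2 fold change was 0.59 (adjusted p = 0.516 by edgeR; 0.37 without vehicle replicate 1). Both had groups that did not overlap, with cisplatin above. Of the 32 related factors tested, 4 had this order, where 20.6% of all genes did. The opposite order was seen in 6 of the 32, where 21.2% of all genes had it.

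Hipk2, a kinase that interacts with Pou4f1, had 7.15 and 8.84 CPM in vehicle-treated and 2.20 and 4.17 CPM in cisplatin-treated rats, and its log2 fold change was -1.33 (adjusted p = 0.509 by edgeR; -1.46 without vehicle replicate 1). The cisplatin-treated libraries of Hipk2 were both below the vehicle-treated libraries. Isl2, the paralogue of Isl1, reached 68.2, 46.6, 102 and 56.7 FPKM in vehicle replicates 1 and 2 and cisplatin replicates 1 and 2, with overlapping groups. Its log2 fold change was 0.46 (adjusted p = 0.669 by edgeR), and 0.76 without vehicle replicate 1.

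The other related genes with the highest mean levels were Cbfb (48.7 FPKM), Prdm12 (46.0 FPKM), Lmo4 (34.8 FPKM), Drgx (23.9 FPKM), Etv5 (18.4 FPKM), Zeb2 (15.4 FPKM) and Hoxd1 (11.8 FPKM). Cbfb, the subunit that both Runx1 and Runx3 need to bind DNA, was thus above either of them in level, and had 145 and 119 CPM in vehicle replicates 1 and 2 against 172 and 142 CPM in cisplatin replicates 1 and 2. Prdm12 and Drgx, factors of the nociceptor lineage, had log2 fold changes of 0.03 and 0.16, and Etv5, a paralogue of Etv1, of 0.13, with none called. The neurogenic factors that precede Isl1 and Pou4f1 in the embryo were nearly absent, with Neurog1 at 0 counts in all libraries, which allows up to 0.12, 0.152, 0.118 and 0.128 CPM by counting error alone, Neurod1 at 1, 0, 2 and 0 counts and Neurog2 at 8, 0, 2 and 1 counts, the highest being in vehicle replicate 1.

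Genes that mark the neuron classes set by these factors were also examined, and 0 of 30 were called by edgeR, and 0 of 30 with the p left unadjusted. Of the 30, 24 had a log2 fold change above 0, with a median of 0.28, and 27 were higher in replicate 1 in both groups, as 9 of the 10 factors were. The 12 pan-neuronal markers moved the same way, with 11 above 0 and a median of 0.30. All 6 markers of nonpeptidergic nociceptors, the class that depends on Runx1, had a log2 fold change above 0, with a median of 0.39. This direction was shared with most neuronal markers. Among them P2rx3, an ATP-gated channel, had 202 and 169 CPM in vehicle-treated and 415 and 231 CPM in cisplatin-treated rats, and its log2 fold change was 0.80 (adjusted p = 0.519 by edgeR; 0.94 without vehicle replicate 1). Calca, the precursor of the peptide CGRP, had a log2 fold change of 0.38, Tac1, the precursor of substance P, 0.43, Pvalb 0.28, Spp1 0.38 and Ret 0.20, with none called. Of the 4 proprioceptor markers, the class of Runx3 and Etv1, 3 were above 0, and of the 6 A low-threshold mechanoreceptor markers, the class of Shox2 and Maf, 5 were. Of the 29 non-neuronal markers tested, 0 were called by edgeR, 8 were above 0 and 21 below. With the p left unadjusted, Cd68 of macrophages was higher (log2 fold change 0.86), and Kcnj10 of satellite glia (-1.11) and Olig1 (-4.97) were lower, the last through vehicle replicate 1. These genes did not stand for their lists. Of the 9 macrophage or leukocyte markers 4 were above 0 and 5 below. In 4, Adgre1 (-0.56), Cd163 (-0.70), Ptprc and Aif1, both cisplatin-treated libraries lay below both vehicle-treated libraries, where 21.2% of all genes did so. In 1, Cd68, both lay above, where 20.6% of all genes did so. Of the 4 satellite glia markers 2 were above 0, Fabp7 (0.55) and Gja1 (0.10), and 2 below.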

How the data were processed

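The authors selected polyadenylated RNA, sequenced paired reads of 150 bases, mapped them to Rnor_6.0 with the Ensembl annotation and deposited whole-number counts per gene, without normalisation, and FPKM values. The submitters' processing notes name HISAT2 2.0.5, StringTie 1.3.3b and featureCounts 1.5.0-p3. The strand setting is not given in the sources used here. No listed gene overlapped any of the 10 factors.

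Groups and replicate numbers came from the labels. Protein-coding genes kept by edgeR's filterByExpr were TMM-normalised (factors 1.1, 0.941, 1.03 and 0.938) and tested by glmQLFit and glmQLFTest of edgeR 4.0.16 in R 4.3.3, without a block. SEs are the log2 fold change over the square root of F. DESeq2 1.42.0, and limma 3.58.1 on log2(FPKM + 1) or log2(FPKM + 0.1), were alternatives, as were other scalings and filters, a replicate block, a gene length offset (lowess span 0.3) and leaving out each library. Ratios to pan-neuronal markers used log2 CPM, leaving out genes with a count of 0 in any library. The fits with the pan-neuronal level as a covariate and DESeq2 with the block were chosen after seeing the data. Methods were tested on simulated data. The p-values of edgeR set the group difference against the spread within the groups of these 4 libraries, with spread estimates shared across genes. The floor of 3 counts covers counting error only. RefSeq synonyms matched 2 marker symbols.

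The factors and the gene lists were chosen with earlier results of these data known. The named genes were all 10 factors, listed genes past an unadjusted p of 0.05 with at least a 1.5-fold change, the 2 genes of highest mean FPKM in each listed group (the main ones are given), and the 3 genes nearest in pattern to the 3 factors of highest level. Neurog1, Neurog2, Neurod1, Foxs1, Adgre1, Cd163, Ptprc, Gja1, and Slc6a5 with the other 5 added central nervous system genes, were chosen after their values were seen. A listed gene is not reported here.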

Additional observations from a re-analysis of the deposited data

Results flagged for a closer look

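An unannotated locus beside Pou4f1 was outside the comparison of protein-coding genes and had a higher level in cisplatin-treated than in control rats. It lies on chromosome 15 at 88350268 to 88614809 (Rnor_6.0) on the plus strand, 5661 bases from Pou4f1, which is on the minus strand. It had 55 and 33 counts in vehicle replicates 1 and 2 and 96 and 57 counts in cisplatin replicates 1 and 2. The group means were 1.94 CPM after vehicle and 3.1 CPM after cisplatin. Both cisplatin-treated libraries were above the vehicle-treated ones by a small margin, the nearest being 2.42 CPM after cisplatin and 2.20 CPM after vehicle. It was flagged for this order among the unannotated loci within 50000 bases of a factor. The same order held in 20.6% of the protein-coding genes tested. The difference between the groups was not tested.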

How the results depend on the processing

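In edgeR without a block 0 of the 10 factors were called, and the same held for the other scalings, filters, biotypes and fits, for DESeq2, for limma and without each library in turn. With a replicate block 1 factor, Maf, was called lower, at -0.80 (edgeR adjusted p = 0.00257), with the block and length offset at -0.80 (adjusted p = 0.00124 by edgeR) and in DESeq2 with the block at -0.80 (adjusted p = 0.000335). Of all genes, 1136 of 14719, 818 of 14719 and, in DESeq2, 686 were called lower in these fits. The adjusted p of Maf ranged up to 0.995 over the alternatives. With the block, Tlx3 (adjusted p = 0.0147) and Isl1 (adjusted p = 0.0337 by edgeR) also passed the p threshold, but not the fold change. With block and length offset Tlx3 did not pass (adjusted p = 0.136) and Isl1 did (adjusted p = 0.0294 by edgeR), and in DESeq2 with the block Tlx3 did (adjusted p = 0.0277) and Isl1 did not (adjusted p = 0.104). Etv1 was 0.57 with the length offset, with or without the block, and with both passed the p threshold (adjusted p = 0.0107 by edgeR). The numbers come from the titles, and only 2 pairs exist, so they are not taken to pair the rats. Across 14719 genes, which are not independent replicates, the replicate difference of vehicle-treated rats correlated with that of cisplatin-treated rats at Pearson's r 0.444 and Spearman's rho 0.567. These edgeR fits tested 32 related factors, 30 class markers, 12 pan-neuronal markers and 29 non-neuronal markers. DESeq2 gave a p for 35 related factors and 35 non-neuronal markers. Related factors called higher and lower were 0 and 0, but 2 and 2 at unadjusted p, 2 and 3 with the block, 2 and 2 with block and length offset, 2 and 2 in DESeq2 with the block, and 1 and 1 with the neuronal covariate. Class markers were 2 and 1 with the block, 4 and 1 with block and length offset, 1 and 0 in DESeq2 with the block, and 0 and 1 with the covariate. Pan-neuronal markers called higher were 3 with each of the 3 block fits. Non-neuronal markers were 1 and 2 at unadjusted p and with the covariate, and 6, 4 and 4 called lower with the block, with block and length offset and in DESeq2 with the block. All genes called were 0 higher and 1 lower, but 1 and 1 with no filter, with at least 10 counts in every library and with limma on log2(FPKM + 0.1), 2 and 2 with log2(FPKM + 1), and 2 and 1 with the length offset. They were 46 and 78 in DESeq2, 412 and 783 at unadjusted p, 529 and 1136 with the block, 471 and 818 with block and length offset, 363 and 686 in DESeq2 with the block, and 464 and 590 with the covariate. Leaving out each library gave 0 to 4 higher and 0 to 4 lower, with 3 and 2 without vehicle replicate 1, 0 and 4 without vehicle replicate 2, 0 and 0 without cisplatin replicate 1 and 4 and 3 without cisplatin replicate 2. The cause was not tested.

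Leaving out each library gave log2 fold changes of -0.49 to 0.43 for Pou4f1, -0.18 to 0.89 for Pou4f2, -0.13 to 0.48 for Pou4f3, -0.22 to 0.40 for Runx1, -0.91 to 0.63 for Runx3 and -0.28 to 0.15 for Shox2, so that the sign of these 6 depended on single libraries. Pou4f1 was above 0 without vehicle replicate 1 or cisplatin replicate 2 (0.10), Shox2 without vehicle replicate 1. Without cisplatin replicate 1, Pou4f2, Pou4f3, Runx1 and Runx3 were below 0, and without vehicle replicate 2 Runx1 (-0.14) and Runx3 (-0.29) were. The ranges were 0.23 to 0.73 for Tlx3, 0.20 to 0.64 for Isl1, 0.07 to 0.36 for Etv1 and -1.42 to -0.27 for Maf. With the pan-neuronal covariate, added after seeing the data, the median of the 10 moved from 0.15 to -0.22, Pou4f2 was -0.33, Pou4f3 -0.20, Runx1 -0.33, Runx3 -0.97 and Maf -0.08. Runx3 was also -0.018 and -0.059 in limma with 1 and 0.1 added to FPKM, -0.052 with the length offset, -0.084 with block and length offset and -0.053 in DESeq2 with the block. Runx3 had 41 to 129 counts per library, which limits its precision.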

Other observations

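Zeb2, a zinc-finger factor that is also active in Schwann cells, had the same order of libraries as Maf, at 66.6 and 105 CPM in vehicle-treated and 31.4 and 72.8 CPM in cisplatin-treated rats. Foxs1, a forkhead factor of sensory ganglia, had 13.1 and 24.7 CPM in vehicle-treated and 19.5 and 27.97 CPM in cisplatin-treated rats. Foxs1 was chosen after its values were seen, and neither gene passed the test.

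Unannotated loci within 50000 bases of Pou4f3, Runx3 and Maf were also read. The locus 1135 bases from Pou4f3, on the same strand, had 97 and 57 counts after vehicle and 134 and 44 after cisplatin, with overlap between the groups. The locus near Runx3 had 5117 and 4993 counts against 3641 and 4871 counts, which is far above the 41 to 129 counts of Runx3 itself. The locus near Maf had 17 and 14 counts against 11 and 25 counts.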
